A study of Mus musculus with 8 samples.

Results

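The genes described here are 6 enzymes and partners of the poly(ADP-ribose) polymerase (Parp) family that are known as interferon-induced, Parp9, Dtx3l, Parp14, Parp10, Parp12 and Parp11, with Parp1 and Parp2 as relatives that are known for DNA repair. They were chosen by name, and a gene was measured where the platform annotation gives it a row that belongs to no other gene. This left 7 of the 8 genes, each with 1 row, among 20259 genes measured in all, because the row listed for Parp10 is shared with Plec. Whole skin was sampled from wound scars of mice at an early stage after wounding, in a setting where new hair follicles can form in the scar, and RNA was hybridised to Affymetrix Exon arrays. The high-regeneration group (4 mice of 1 strain) was compared with the low-regeneration group (4 mice of another strain), so that strain and regeneration level cannot be told apart. The labels name neither the strains nor their age, genotype, sex or day of biopsy.

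Parp enzymes transfer ADP-ribose from NAD onto proteins. Parp1 and Parp2 build long chains of it at DNA breaks, where the chains recruit repair factors. Parp9, Parp10, Parp11, Parp12 and Parp14 belong to the branch of the family that adds single ADP-ribose units or, for Parp9, was long regarded as inactive by itself, and their genes are known to be switched on by interferons in many cell types. Interferons act through transcription factors, Stat2 and Irf9 among them, that bind a short promoter element, and the induced proteins restrict viruses and tune the interferon response itself. Dtx3l is a ubiquitin ligase of the Deltex family that forms a complex with Parp9.

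The array medians lay between 6.09 and 6.29 on the log2 scale, no sample stood apart in its overall level, and 4 arrays per group limit the precision. Some arrays differed within a group. The mean of 10 measured skeletal muscle markers ran from 6.95 to 7.15 over the high arrays, against 7.09, 7.0, 9.79 and 10.45 in the low arrays 1 to 4, so that low 3 and low 4 were rich in muscle RNA. Signal of Eif2s3y, a gene of the Y chromosome, was strong in 1 high array (high 4, 7.70) and 2 low arrays (low 2, 7.67, and low 4, 7.57) and did not exceed 4.76 elsewhere. These 3 arrays were not alike in Xist, which is transcribed from the inactive X chromosome, at 6.11 in high 4, 9.60 in low 2 and 10.05 in low 4, while the other arrays had 12.74 to 12.93. Low 2 and low 4 thus carried both signals, and whether each of them holds RNA of 1 mouse was not tested. Keratinocyte and fibroblast markers were strong in every array, as in skin, with list means of 12.07 to 12.16 in the high group and 11.88 to 12.09 in the low group for keratinocytes, and of 11.16 to 11.29 in the high group and 11.18 to 11.35 in the low group for fibroblasts. In whole biopsies more cells of a type and more RNA per cell cannot be told apart.

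Of the 5 measured interferon-linked genes, 4 rose in the high-regeneration scars (Parp14, Parp9, Dtx3l and Parp12), by 1.5 to 1.79 times, and Parp11 did not pass the test. Parp1 and Parp2 did not pass either and had small negative estimates. Across all genes tested 1.86% were called higher and 2.47% lower at an adjusted p under 0.05 (limma, Benjamini-Hochberg over all genes), and 11.7% were higher and 10.1% lower at an unadjusted p under 0.05. The 2 groups of arrays did not overlap in any of the 5 interferon-linked genes, which held with the high group above the low group for 7.19% of all genes. These changes are differences in deposited log2 values, and levels of different genes are not compared because each row has its own probes.

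Parp14 encodes the family member with several macrodomains, modules that bind ADP-ribose, and was described in mouse as a cofactor of Stat6 in the interleukin-4 response. Its log2 values were 9.38, 9.18, 9.24 and 9.19 in the high arrays 1 to 4, against 8.55, 8.33, 8.53 and 8.22 in the low arrays 1 to 4. Every high array lay above every low array, with a gap of 0.63 between the lowest high and the highest low value. Parp14 was 0.84 ± 0.09 (SE) higher, a fold of 1.79 (95% interval 1.56 to 2.06), with an adjusted p of 0.00316 (limma). Of all genes 0.469% had a larger rise.

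Parp9 and Dtx3l are neighbours. In the RefSeq annotation of GRCm38.p6 both lie on chromosome 16, overlap, and have no gene between them, and Parp14 lies beside them with 2 pseudogenes in between. In human cells the 2 genes are known to share a promoter that responds to interferon gamma. Parp9 had log2 values of 8.95, 8.68, 8.88 and 8.80 in the high arrays, against 8.31, 8.05, 8.21 and 7.78 in the low arrays. Dtx3l had 8.88, 8.79, 8.79 and 8.85 in the high arrays, against 8.24, 8.18, 8.10 and 7.96 in the low arrays. The high arrays were tightly grouped for Dtx3l (SD 0.04, against 0.12 in the low group, n = 4 each), and low 4 was the lowest array for both genes. Parp9 rose by 0.74 ± 0.12 (adjusted p = 0.0121) and Dtx3l by 0.71 ± 0.07 (adjusted p = 0.00270), folds of 1.67 and 1.63. The difference Parp9 minus Dtx3l per array, a pair set after the values were seen, averaged -0.0022 ± 0.10 in the high group and -0.03 ± 0.14 in the low group (SD, n = 4 each). The groups overlapped in it, and the exact two-sided permutation p was 0.686 over 70 assignments of arrays.

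No window was found for Parp9, and where its start lies relative to the Dtx3l window is not known here. The window before the Dtx3l start is shown because Dtx3l overlaps Parp9, and because the pair moved by nearly the same amount. It is 250 bases before to 50 after the gene's start, from RefSeq with build GRCm38.p6, at chr16:35938978-35939277 on the minus strand, 5′ to 3′ along the gene. It is in lower case throughout since neither motif described below is found in it.
Dtx3l: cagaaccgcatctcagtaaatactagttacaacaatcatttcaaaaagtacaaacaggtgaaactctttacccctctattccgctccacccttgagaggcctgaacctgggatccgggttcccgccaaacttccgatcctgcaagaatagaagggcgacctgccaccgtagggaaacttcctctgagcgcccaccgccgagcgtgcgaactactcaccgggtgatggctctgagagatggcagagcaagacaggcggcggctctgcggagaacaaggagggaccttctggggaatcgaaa

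Parp12 encodes a zinc-finger member that adds single ADP-ribose units and is known to restrict the replication of RNA viruses. Its log2 values were 9.44, 9.24, 9.30 and 9.24 in the high arrays, against 8.72, 8.68, 8.97 and 8.50 in the low arrays. The muscle-rich arrays were the highest (low 3) and the lowest (low 4) of the low group. Parp12 rose by 0.59 ± 0.10, a fold of 1.5 (1.28 to 1.76), with an adjusted p of 0.0166. The call was lost without low 2 (adjusted p = 0.0524) and without high 3 (0.0537), while the change was 0.58 and 0.59 in these fits.

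Parp11 encodes a small member with a WWE domain and is needed in mouse for the shape of the sperm nucleus. It had log2 values of 7.62, 7.48, 7.57 and 7.54 in the high arrays, against 7.41, 7.32, 7.29 and 7.14 in the low arrays. The groups did not overlap, but only 0.07 separated the lowest high array from the highest low array. The estimate was 0.26 ± 0.07, a fold of 1.20 (1.07 to 1.34), with an adjusted p of 0.0754 and an unadjusted p of 0.00512 (limma). It was called without low 1 (adjusted p = 0.0466), when genes below the median level were left out (0.0448) and at the looser threshold of 0.10.

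The changes of the other interferon-linked genes were also set against that of Parp11 on the same array. Parp11 was taken because its change was the smallest of the 5, so these differences describe the values and are no test. Parp14 exceeded Parp11 in its log2 change by 0.58 ± 0.08 (SE), Parp9 by 0.48 ± 0.09, Dtx3l by 0.45 ± 0.08 and Parp12 by 0.33 ± 0.10.

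Both windows listed for Parp11 are shown because they differ in the promoter element through which interferons act. The interferon-stimulated response element core was searched as GAAANNGAAA, which reads TTTCNNTTTC on the other strand, and the gamma-activated site as TTCNNNGAA, which reads the same on both strands. Of 32851 windows of the same length 3.44% held the first and 8.3% the second. The first Parp11 window, at chr6:127446590-127446889 on the plus strand, held both, at bases 207 to 216 and 214 to 222 with 3 bases in common, which stand in capitals. The second, at chr6:127453377-127453676 on the plus strand, held neither.
Parp11 window 1: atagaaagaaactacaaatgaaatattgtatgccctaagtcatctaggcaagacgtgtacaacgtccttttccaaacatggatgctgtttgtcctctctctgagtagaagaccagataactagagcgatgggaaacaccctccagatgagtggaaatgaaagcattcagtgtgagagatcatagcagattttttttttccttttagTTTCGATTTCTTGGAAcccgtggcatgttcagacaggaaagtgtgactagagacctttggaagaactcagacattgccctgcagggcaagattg
Parp11 window 2: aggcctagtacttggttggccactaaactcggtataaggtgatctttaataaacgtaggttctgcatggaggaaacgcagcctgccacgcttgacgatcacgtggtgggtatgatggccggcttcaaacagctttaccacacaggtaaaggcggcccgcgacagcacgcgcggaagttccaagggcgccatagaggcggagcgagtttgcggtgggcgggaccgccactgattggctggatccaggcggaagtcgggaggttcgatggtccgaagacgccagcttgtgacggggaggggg

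A window was found for 5 of the 8 genes, 6 windows in all. The windows of Dtx3l, Parp12, Parp1 and Parp2 held neither motif. A match describes letters only, and no match says that these letters are not in this window. The array row of Parp11 does not separate transcripts by their start.

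**Figure D1:**
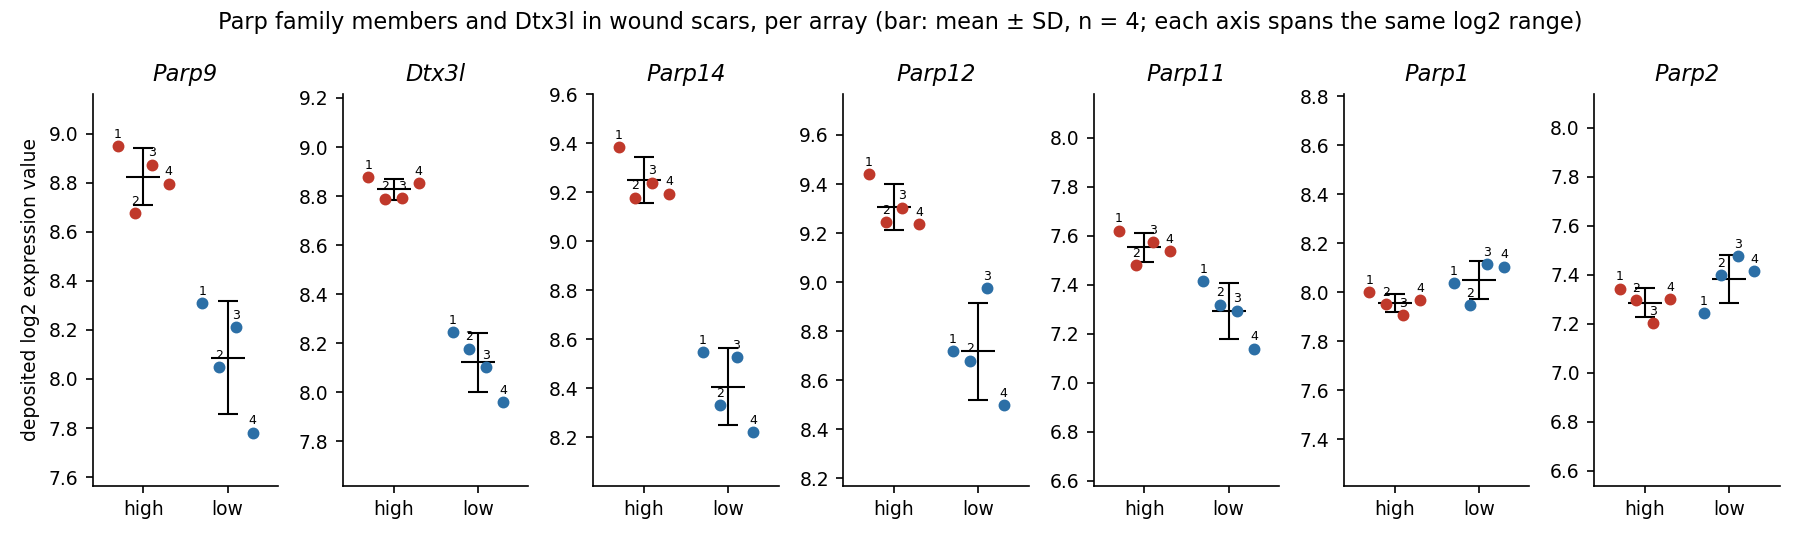
Deposited log2 expression values of the 7 measured genes in each array, with the high-regeneration group (red) left of the low-regeneration group (blue) and digits giving the array number. Bars are means ± SD (n = 4), and each panel spans the same log2 range. The groups are apart in Parp9, Dtx3l, Parp14, Parp12 and Parp11 and overlap in Parp1 and Parp2.

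Parp1, the main sensor of DNA breaks in the family, had log2 values of 8.0, 7.95, 7.91 and 7.97 in the high arrays, against 8.04, 7.95, 8.11 and 8.11 in the low arrays. The groups overlapped through low 2. The estimate was -0.09 ± 0.06 (95% interval -0.23 to 0.04, adjusted p = 0.384), so that the fold lay between 0.85 and 1.03.

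Parp2, which acts beside Parp1 at DNA breaks, had 7.34, 7.30, 7.20 and 7.30 in the high arrays, against 7.24, 7.40, 7.48 and 7.41 in the low arrays. Here low 1 lay within the range of the high group and the 3 other low arrays above it. The estimate was -0.10 ± 0.07 (-0.25 to 0.06, adjusted p = 0.424). A rise of the size seen in Parp12 or the 3 stronger genes lies outside both intervals.

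The exact two-sided permutation test of the difference in means gave p = 0.0286 for each of the 5 interferon-linked genes, the smallest p that 4 against 4 arrays allow, and p = 0.114 for Parp1 and 0.143 for Parp2. These 7 tests were not adjusted.

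The change relative to the repair enzymes was tested by subtracting the mean of Parp1 and Parp2 of the same array from every gene, which also removes any shift shared by a whole array. Parp14 was 0.94 ± 0.10 higher on this scale (95% interval 0.72 to 1.16, adjusted p = 0.00266), Parp9 0.83 ± 0.13 (0.0109), Dtx3l 0.80 ± 0.09 (0.00374) and Parp12 0.68 ± 0.10 (0.00972). Of the 5 interferon-linked genes 4 were called higher, against 2.15% of all genes in this fit. Parp11 had 0.36 ± 0.09 (0.15 to 0.57) and an adjusted p of 0.0699. Its relative values still did not overlap between groups, which by itself sets the exact permutation p at 0.0286. The share of all genes without overlap on this scale is not given here.

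**Figure D2:**
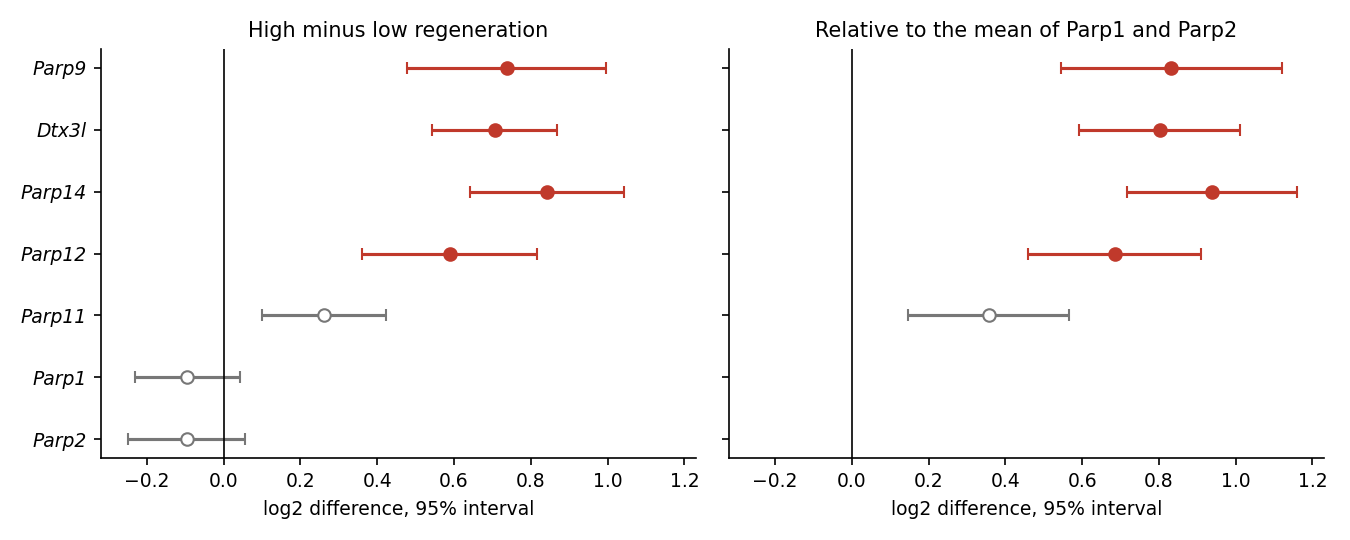
Log2 difference, high minus low regeneration, with its 95% interval from limma, for the values as deposited (left panel) and relative to the mean of Parp1 and Parp2 on the same array (right panel). Filled red points passed an adjusted p of 0.05. Parp14 lies highest in both panels (0.84 and 0.94), and Parp1 and Parp2 lie at -0.09 and -0.10 on the left.

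Within the groups the interferon-linked genes followed the same arrays. High 1 was the highest array of its group in 5 of 5 genes and low 4 the lowest of its group in 5 of 5. High 2 was the lowest high array in 4, with high 4 lowest for Parp12, and low 1 the highest low array in 4, with low 3 highest for Parp12. Low 4 was also the array with the highest muscle marker level (10.45), and the part of muscle in the result was not tested beyond the fits given here. With low 3 and low 4 left out, Parp14 was 0.81 higher (adjusted p = 0.0146), Parp9 0.65 (0.0372), Dtx3l 0.62 (0.0121) and Parp12 0.61 (0.0184). All 4 calls held, among 127 of 20259 genes called higher in that fit. The estimates of Parp1 and Parp2 moved to -0.04 each. With the muscle marker mean as a covariate 118 genes were called higher in all. Dtx3l (0.61, adjusted p = 0.00975) and Parp14 (0.80, 0.0149) kept their calls and Parp9 (0.63, 0.0580) and Parp12 (0.59, 0.0657) did not.

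The arrays with Y-linked signal were treated in 2 ways. With the Xist level as a covariate on all 8 arrays the 4 calls held, among 254 genes called higher in all. The changes were 0.85 for Parp14 (adjusted p = 0.00569), 0.74 for Parp9 (0.0191), 0.71 for Dtx3l (0.00671) and 0.59 for Parp12 (0.0212). Without high 4, low 2 and low 4, which leaves 3 high and 2 low arrays, 0 of the 5 interferon-linked genes were called (limma), and 4 of the 5 had an unadjusted p under 0.05, which 6.22% of all genes had with a higher value in the high group. The changes were 0.73 for Parp14 (adjusted p = 0.0973), 0.65 for Dtx3l (0.121), 0.57 for Parp9 (0.198), 0.48 for Parp12 (0.257) and 0.20 for Parp11 (0.470). Of all genes 5 were called higher in that fit.

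**Figure D3:**
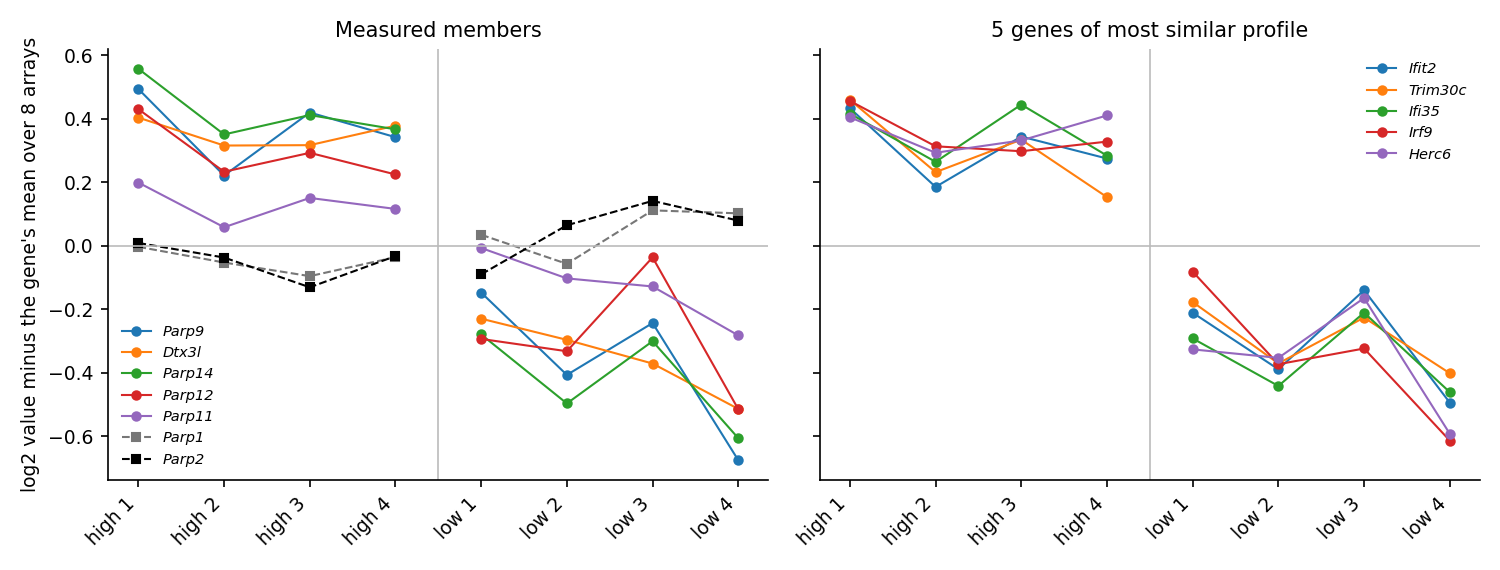
Log2 value minus the gene's own mean over 8 arrays, for the 7 measured genes (left panel) and the 5 genes of most similar profile (right panel), with the high arrays left of the low arrays. Lines join arrays of a group only to guide the eye, and dashed lines are Parp1 and Parp2. Low 4 is the lowest array of each solid line, and high 1 the highest of each solid line in the left panel.

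The genes whose profile over the 8 arrays came closest to the mean profile of the 5 interferon-linked genes were Ifit2, Trim30c, Ifi35, Irf9 and Herc6. Likeness was the root mean square difference between centred profiles, over 17566 genes compared, and these 5 lay at 0.042, 0.067, 0.074, 0.075 and 0.076 against a median of 0.341. The members and predicted genes (named Gm with digits, or ending in Rik) were left out of this ranking. The members' own distances ran from 0.072 for Dtx3l to 0.188 for Parp11. Since the measure counts the difference between groups, genes of a like change rank high in it. Ifit2, which binds viral RNA, had 8.59, 8.35, 8.50 and 8.43 in the high arrays, against 7.95, 7.77, 8.02 and 7.67 in the low arrays, and was 0.62 ± 0.09 higher (adjusted p = 0.0109). The other 4 were higher by 0.59 to 0.72.

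The factors that carry the interferon signal to such promoters were in part higher. Stat2 rose by 0.78 ± 0.13 (adjusted p = 0.0144), Irf9 by 0.70 ± 0.10 (0.0112) and Irf7, which amplifies type I interferon production, by 0.89 ± 0.15 (0.0144). Irf1, more tied to interferon gamma, had 0.21 ± 0.06 and an adjusted p of 0.0997. Of 14 measured factors and receptors 5 were higher and 0 lower, the other 2 being Irf8 (0.49) and Usp18 (1.6), an enzyme that removes Isg15 and limits receptor signalling. The median was 0.22, against 0.03 over all genes, of which 1.86% were called higher. The receptor chains Ifnar1 (0.10), Ifnar2 (0.23), Ifngr1 (0.03) and Ifngr2 (0.27) did not pass. With the muscle mean as a covariate 3 of the factors were called, beside 118 of all 20259 genes called higher. With high 4, low 2 and low 4 left out 1 factor was called, beside 5 of all genes.

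Of the 24 measured interferon-stimulated genes from a list drawn with earlier results known, 23 were higher, at a median of 0.95. Of all genes 1.86% were called higher, and the median change was 0.03. Ifit3 (1.55 ± 0.12) and Ifit1 (1.97 ± 0.20), of the family that binds viral RNA, Mx2 (1.14 ± 0.11), a GTPase that restricts viruses, and Xaf1 (0.92 ± 0.09) had the smallest p. The called Parp genes, at 0.59 to 0.84, lay within the range of this list, 0.36 to 1.97. With the muscle mean as a covariate 15 of the 24 were called, beside 118 of all 20259 genes called higher. With high 4, low 2 and low 4 left out 2 of the 24 were called, beside 5 of all genes. Of 10 measured targets more tied to interferon gamma 2 were higher, the GTPases Irgm1 (0.89, adjusted p = 0.00364) and Gbp3 (0.73, 0.0254), and the median was 0.42. The chemokines Cxcl9 (0.68 ± 0.37) and Cxcl10 (0.44 ± 0.22) did not pass. Gbp3 lost its call without low 2, low 3, low 4 or high 4 (adjusted p of 0.0554 to 0.0719).

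No other member of the Parp family was called higher. Of 8 other measured members 0 were higher (1 at an unadjusted p under 0.05) and 1 was lower, at a median of 0.07. Parp3, which acts at DNA double-strand breaks, had 8.44, 8.47, 8.54 and 8.47 in the high arrays, against 8.99, 8.82, 8.86 and 8.72 in the low arrays, and fell by 0.36 ± 0.07 (adjusted p = 0.0236). It passed without low 1 or low 4 but not without any other single array (0.0568 to 0.0661). Zc3hav1, an antiviral member that binds RNA, had 0.14 ± 0.08 and Tiparp, a target of the aryl hydrocarbon receptor, 0.29 ± 0.10, and neither passed (adjusted p = 0.316 and 0.136). The tankyrases Tnks (-0.04) and Tnks2 (-0.03) had estimates near 0.

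Among 4 other Deltex ubiquitin ligases 1 was higher. Dtx3 had 8.01, 8.06, 8.07 and 8.18 in the high arrays, against 7.88, 7.73, 7.82 and 7.61 in the low arrays, and rose by 0.32 ± 0.07 at an adjusted p of 0.0469. Dtx1 (0.02), Dtx2 (-0.03) and Dtx4 (-0.19) did not pass. The call of Dtx3 held only without low 1 when single arrays were left out (adjusted p of 0.0340, and 0.0740 to 0.119 otherwise), and it was lost when the arrays were centred on their medians (0.126).

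Of 10 measured genes that read or remove ADP-ribose 1 was lower, the chromatin remodeller Chd1l, which is activated by poly(ADP-ribose), and 0 were higher (limma, with 2 higher and 2 lower at an unadjusted p under 0.05). Chd1l had 7.16, 7.23, 7.12 and 7.20 in the high arrays, against 7.44, 7.40, 7.48 and 7.49 in the low arrays, and fell by 0.28 ± 0.06 (adjusted p = 0.0286). Among single arrays left out, it passed only without low 1 (0.0381, and 0.0539 to 0.0882 otherwise). Parg, which degrades ADP-ribose chains, had -0.12 ± 0.11. Of 7 measured repair partners of Parp1 and Parp2 0 were called (limma, with 0 higher and 3 lower at an unadjusted p under 0.05), at a median of -0.16. The 3 lower ones were Supt16 (-0.29 ± 0.11), Hpf1 (-0.23 ± 0.08) and Aptx (-0.17 ± 0.08), and 1 of the 7 had a positive estimate. Xrcc1, the scaffold recruited by ADP-ribose chains, had -0.0015 ± 0.05, the estimate closest to 0 in this list. Of 11 measured genes of NAD salvage and use 0 were called (limma, with 1 higher and 2 lower at an unadjusted p under 0.05), at a median of 0.04. Nampt, the rate-limiting enzyme of NAD salvage, had 0.07 ± 0.11.

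**Figure D4:**
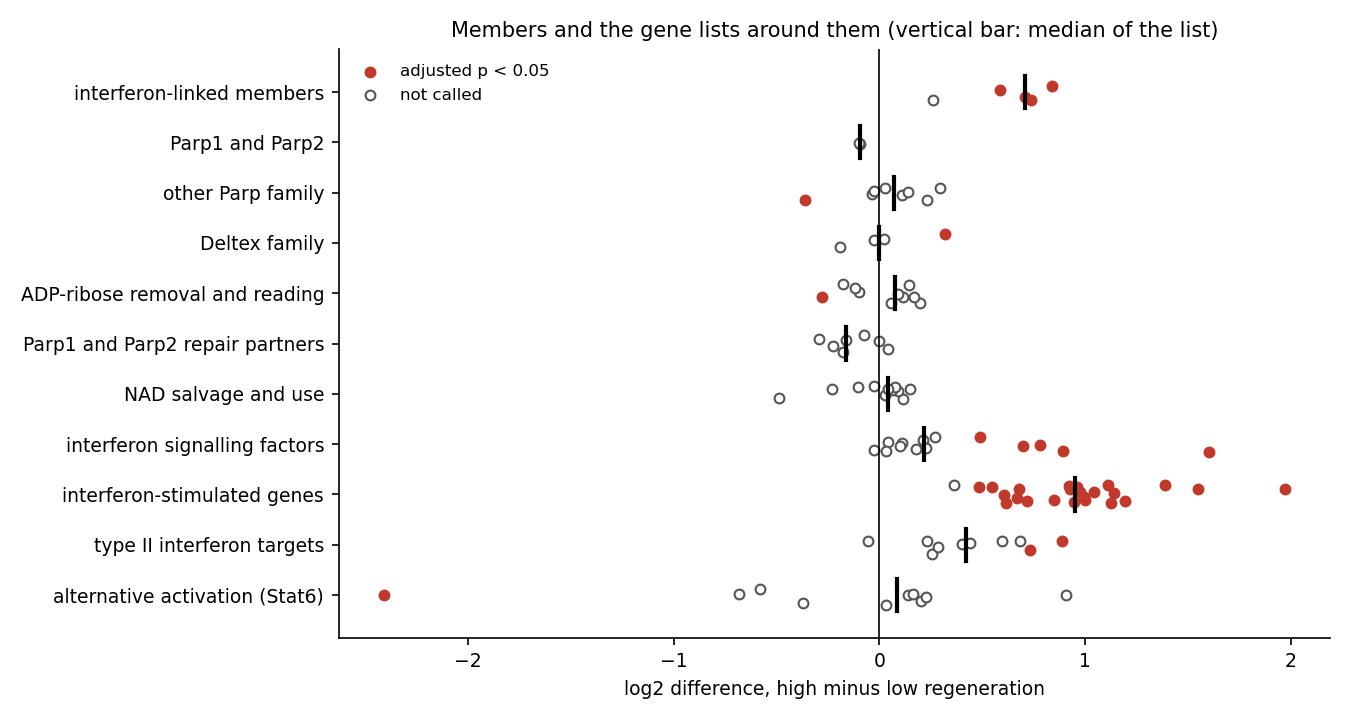
Log2 difference, high minus low regeneration, of the members and of the genes of each list around them, with 1 point per gene and a vertical bar at the median. Filled red points passed an adjusted p of 0.05. The interferon-stimulated genes (median 0.95) and the interferon-linked members (median 0.71) lie to the right. The other Parp, Deltex, ADP-ribose and NAD lists lie around 0 with medians of -0.0035 to 0.07. The repair list lies mostly below 0, at a median of -0.16 and with 1 of 7 genes above 0.

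Markers of immune and other cells were read beside the rise, and their part in it was not tested. Among 6 measured macrophage and monocyte markers 1 was higher, the antibody receptor Fcgr1 (0.67, adjusted p = 0.00729), which interferon itself induces, and the list mean was 9.38 to 9.57 in the high group and 9.08 to 9.41 in the low group. Among 4 measured dendritic cell markers 1 was higher, Siglech (0.79, adjusted p = 0.0112). Siglech is a surface protein of the plasmacytoid dendritic cells known as producers of type I interferon. Zbtb46 (0.24 ± 0.07), Flt3 (0.01 ± 0.07) and Cd207 (-0.09 ± 0.12) did not pass. The list mean was 7.03 to 7.18 in the high group and 6.83 to 6.93 in the low group. Siglech had 7.38, 7.18, 7.06 and 7.07 in the high arrays, against 6.27, 6.14, 6.50 and 6.64 in the low arrays. Low 4, the lowest array for the Parp genes, was the highest low array for Siglech. Siglech lost its call with the replicate number as a block. Among 5 endothelial markers 1 was higher, Emcn (0.40, adjusted p = 0.0156), and all 5 were higher at an unadjusted p under 0.05, with list means of 8.62 to 8.93 in the high group and 8.40 to 8.61 in the low group. Emcn lost its call without low 2 (0.0514) or high 3 (0.0550). Of 5 T and NK cell markers, 3 B cell markers and 5 neutrophil markers 0 were called (limma, with 2 neutrophil markers higher at an unadjusted p under 0.05 and 0 of the others). The T and NK cell mean was 6.59 to 6.88 in the high group and 6.55 to 6.72 in the low group, the B cell mean 5.80 to 6.01 in the high group and 5.61 to 5.89 in the low group, and the neutrophil mean 7.40 to 8.02 in the high group and 7.25 to 7.84 in the low group. Of 5 adipocyte markers 0 were called (limma, with 4 lower at an unadjusted p under 0.05), with list means of 6.83 to 7.01 in the high group and 7.03 to 8.41 in the low group. Hair shaft and inner root sheath markers were lower in 6 of 6. Their list means were 7.42 to 8.59 in the high group and 9.68 to 10.57 in the low group. Cell cycle markers were lower in 4 of 6 (limma, with 6 lower at an unadjusted p under 0.05). Their list means were 7.99 to 8.40 in the high group and 8.66 to 8.83 in the low group. No detection calls were used, so that which markers are at background is not known.

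**Figure D5:**
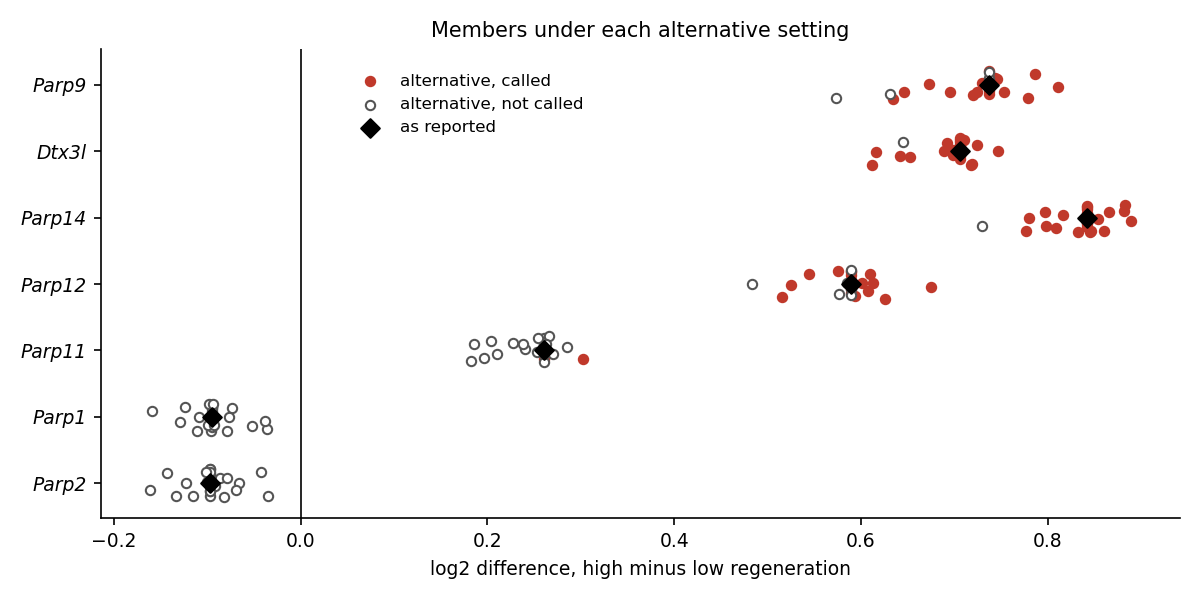
Log2 difference, high minus low regeneration, of the 7 measured genes as reported (diamond) and under 26 alternative settings (points), filled red where the gene passed the setting's threshold. No estimate changed sign, and the lowest values of Parp9 (0.57), Parp14 (0.73) and Parp12 (0.48) came with high 4, low 2 and low 4 left out.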

How the data were processed

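RNA of 8 whole-skin scar biopsies was labelled with biotin after amplification from random primers and hybridised to Affymetrix Exon arrays, per the labels' protocols. The authors deposited log2 expression values per transcript cluster. Affymetrix Expression Console and PLIER are named in the submitters' processing notes, while neither the background correction nor the normalization is given in the sources used here. The log2 scale was read from the values, which run from 2.10 to 14.92. The file holds 115830 rows, of which 25539 are paired with 1 symbol and were used, and 2300 with several symbols, which were left out. Rows of a gene were averaged, which concerned 3109 of 20259 genes and none described as a member here. No filter was applied.

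Differences are high minus low regeneration in limma 3.58.1 (R 4.3.3, lmFit and eBayes, two-sided), with p-values adjusted by Benjamini-Hochberg across all genes and calls at 0.05. The same fit was run relative to Parp1 and Parp2 and, as a description, relative to Parp11. The fit was also tested on simulated data. Exact permutation tests used all 70 assignments. Promoter windows are RefSeq's (GRCm38.p6).

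The members, gene lists, tests and alternative settings were chosen with earlier results of these data known, and no p-value was adjusted over a list alone. Members are all named. From each list, called genes are named, at most 4 with the smallest p, beside Stat2, Irf9, Irf7 and Irf1. Genes named beyond this rule were chosen after their values were seen. They include Parg, Nampt, the named repair partners, Zc3hav1, Tiparp, the tankyrases, Deltex genes, interferon receptors, chemokines and the uncalled dendritic cell markers. Lists count measured genes only.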

Additional observations from a re-analysis of the deposited data

Results flagged for a closer look

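A row outside the gene-level comparison, which the annotation gives to Plec and Parp10 together, had higher values in every high array than in any low array. It had 9.09, 8.93, 9.12 and 8.98 in the high arrays, against 8.62, 8.47, 8.34 and 8.25 in the low arrays, a difference of 0.61 ± 0.11 (SE). The adjusted p in the fit of all rows was 0.0827 (limma). The signal cannot be assigned to either gene, and Parp10 has 0 rows of its own. No array lay far from the other 3 of its group in any of the 14 groups of member values, by Dixon's ratio at its 95% critical value.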

How the results depend on the processing

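Under 26 alternatives the number of interferon-linked genes called higher stayed between 3 and 5 of 5 in 22, and the estimates of Parp9, Dtx3l, Parp14, Parp12 and Parp11 stayed positive and those of Parp1 and Parp2 negative in each. It was 2 when all 115830 rows were fitted one by one (Dtx3l and Parp14, with Parp9 at an adjusted p of 0.0770 and Parp12 at 0.107), 2 at an adjusted p under 0.01, 2 with the muscle mean as a covariate and 0 without low 2, low 4 and high 4. Relative to Parp1 and Parp2, 4 or 5 were called in 12 of 13 alternatives and 0 without low 2, low 4 and high 4. These 13 were the replicate block, Parp1 or Parp2 alone as the reference, and fits with arrays left out. The muscle covariate, the fit of all rows and the threshold of 0.01 were not among them, so that the 2 shares are not comparable. Why fewer genes were called in these settings was not tested. Leaving out single arrays gave changes of 0.63 to 0.81 for Parp9, 0.65 to 0.75 for Dtx3l, 0.78 to 0.89 for Parp14, 0.52 to 0.67 for Parp12 and 0.21 to 0.30 for Parp11. The titles give replicate numbers but do not say whether these pair arrays across groups. Deviations of same-numbered arrays had correlations of -0.26 to 0.02, and 0 of 4 arrays matched best with its own number. Whether same-numbered arrays shared a batch was not tested. With the replicate number as a block the 4 interferon-linked calls held (adjusted p of 0.0104 to 0.0492), while Parp3, Dtx3, Chd1l, Gbp3, Retnla, Siglech, Emcn and Irf8 were not called, and the genes called were 105 higher and 134 lower, against 376 and 500 as reported. These counts also moved to 164 and 228 with all rows, 58 and 74 at 0.01, 798 and 994 at 0.10, 118 and 223 with the muscle covariate, 127 and 198 without low 3 and low 4, 5 and 10 without low 2, low 4 and high 4, and 129 to 536 and 163 to 669 without single arrays. Calls were 42.9% higher genes, 26.3% after median centring (212 and 593) and 31.7% after cyclic loess (291 and 628). The median change of all genes was 0.03 as reported and -0.04 after median centring, where Parp14 was at 0.78, Parp9 at 0.67, Dtx3l at 0.64 and Parp12 at 0.52, all called.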

Other observations

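Parp14 was described in mouse with Stat6 in the response to interleukin-4. Of 10 measured genes of that response 1 was lower and 0 were higher (limma, with 2 higher and 2 lower at an unadjusted p under 0.05), at a median of 0.09 and a range of -2.41 to 0.91. Retnla, which encodes a protein secreted by macrophages under interleukin-4, had 4.56, 5.49, 4.50 and 4.49 in the high arrays, against 5.57, 6.90, 8.74 and 7.47 in the low arrays, and fell by 2.41 ± 0.57 (SE) at an adjusted p of 0.0484 (limma, 0.0137 to 0.395 over the alternatives). The high arrays other than high 2 had values near those of Eif2s3y in arrays without Y-linked signal (4.08 to 4.76). Each row has its own probes, so that the Eif2s3y level does not set the background of Retnla. Without detection calls Retnla is not shown to be above background in these high arrays, and the size of its difference is uncertain. Without low 3 and low 4 it was at -1.47 (adjusted p = 0.148), and among single arrays left out it passed only without low 1. Arg1 (0.91 ± 0.33) and Mrc1 (-0.68 ± 0.19) did not pass, and Stat6 had 0.20 ± 0.07.

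The low arrays varied more than the high arrays in each of the 7 measured genes, with a ratio of SDs, low over high, of 1.67 to 2.75. Over all genes the SD was larger in the low group for 63.2%, at a median ratio of 1.24. This difference in spread was not tested.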
